A study of Sus scrofa with 20 samples.

Results

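The genes of the proteasome were examined in the hypothalamus of 20 German Landrace pigs, 10 of a low-reactive (LR) and 10 of a high-reactive (HR) coping pattern. All animals were labelled adult, and each was measured on 1 Affymetrix Porcine Snowball array. The study selected the animals for extreme coping behaviour in an early-life backtest, in which a piglet is held on its back, and for their haplotype at a chromosome 12 locus, so behaviour and haplotype cannot be told apart between the groups. The labels give neither sex nor hybridisation batch, and replicate numbers serve as names alone. Members were all genes whose array symbol began with PSMA, PSMB, PSMC, PSMD, PSME, PSMF or PSMG, without PSMB8 and PSMB9, each read from its probe set of highest mean. This gave 43 genes of the 13755 named genes on the array, with 73 probe sets. Of the 43 genes, 38 passed a filter that kept the 50% of probe sets with the higher mean over both groups, which ended at a mean log2 value of 5.21.

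The proteasome is the protease complex that degrades proteins marked with ubiquitin. Its core is a barrel of stacked rings: the outer rings are built of alpha subunits (PSMA genes), which gate the entrance, and the inner rings of beta subunits (PSMB genes), some of which cut peptide bonds. A regulatory cap of ATPases (PSMC genes) and non-ATPase subunits (PSMD genes) binds the ubiquitin chain, removes it and feeds the unfolded substrate into the core. Other caps (PSME genes) open the core without ubiquitin, PSMF1 encodes an inhibitor of the core, and PSMG genes and a few PSMD genes encode factors that help to assemble the complex. In neurons the proteasome takes part in the turnover of synaptic proteins and in protein quality control.

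By their symbols and known roles, 7 of the 43 members belong to the alpha ring, 8 to the beta ring, 5 to the ATPases, 10 to the non-ATPase subunits, 5 to activators and inhibitor and 7 to assembly factors. The remaining gene, PSMC3IP, a recombination factor that binds PSMC3, shares only the prefix and is no subunit. PSMA1, PSMB10, PSMC3 and PSMD13 matched no array symbol and were not analysed here. The probe sets of 11 members can bind several transcripts, and the gene behind their signal is uncertain.

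Markers of the labelled tissue gave signal. Of 13 hypothalamic markers, 11 were measured and all 11 passed the filter. AVP (arginine vasopressin) averaged 12.01 on the log2 scale and OXT (oxytocin) 11.9, while AGRP (5.47), CRH (5.97) and SIM1 (6.07) lay near the filter. The mean of 6 pituitary markers stayed between 3.28 and 4.20 over all arrays, although LHB (6.19) and GH1 (5.23) passed the filter. Of 6 thalamic markers 5 passed as well, so passing the filter does not by itself single out the tissue. LR 3 (the array of LR replicate 3, with arrays named in this way throughout) stood apart, with the lowest hypothalamic and the highest thalamic marker mean of all arrays. The mean of 69 control probe sets that match no known transcript measured the unspecific signal of an array, called the background below. It averaged 4.01 ± 0.17 over the LR arrays and 4.09 ± 0.26 over the HR arrays (SD, n = 10 each), was highest on HR 5 (4.44) and HR 4 (4.39), and lowest on LR 8 (3.68). In tissue samples, fewer cells of a type and less RNA per cell cannot be told apart.

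Between HR and LR, no proteasome gene passed the threshold. HR and LR were compared with limma over all 23861 kept probe sets, with Benjamini-Hochberg adjustment and a threshold of 0.05. The count past the adjusted threshold was 0 of 23861 (0%), and the smallest adjusted p of any member was 0.861. At an unadjusted p under 0.05, 2 of the 38 members were lower in HR (PSMA6 and PSMC1), where 3.36% of all kept probe sets were, and 0 were higher, where 1.21% of all were. With so few genes, these counts are near what the shares of all probe sets would give. The exact rank-sum test left 0 of the 38 members at an unadjusted p under 0.05, and 875 of all 23861 kept probe sets. With so few genes, 0 is near that share. Of the 38, 24 had a lower and 14 a higher mean in HR, with a median difference of -0.07 (log2), while over all kept probe sets the median difference was 0.01 and 48.6% were lower. Without LR 3, 28 of the 38 were lower in HR, but the median difference shrank to -0.05. In that fit 1 member was at an unadjusted p under 0.05 (limma), and no share of lower probe sets is given for it. The ranges of the LR and the HR arrays overlapped for all 38 members, as they did for all 23861 kept probe sets. For a typical kept probe set, the 95% interval reached 0.29 log2 units to each side of the difference.

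**Figure D1:**
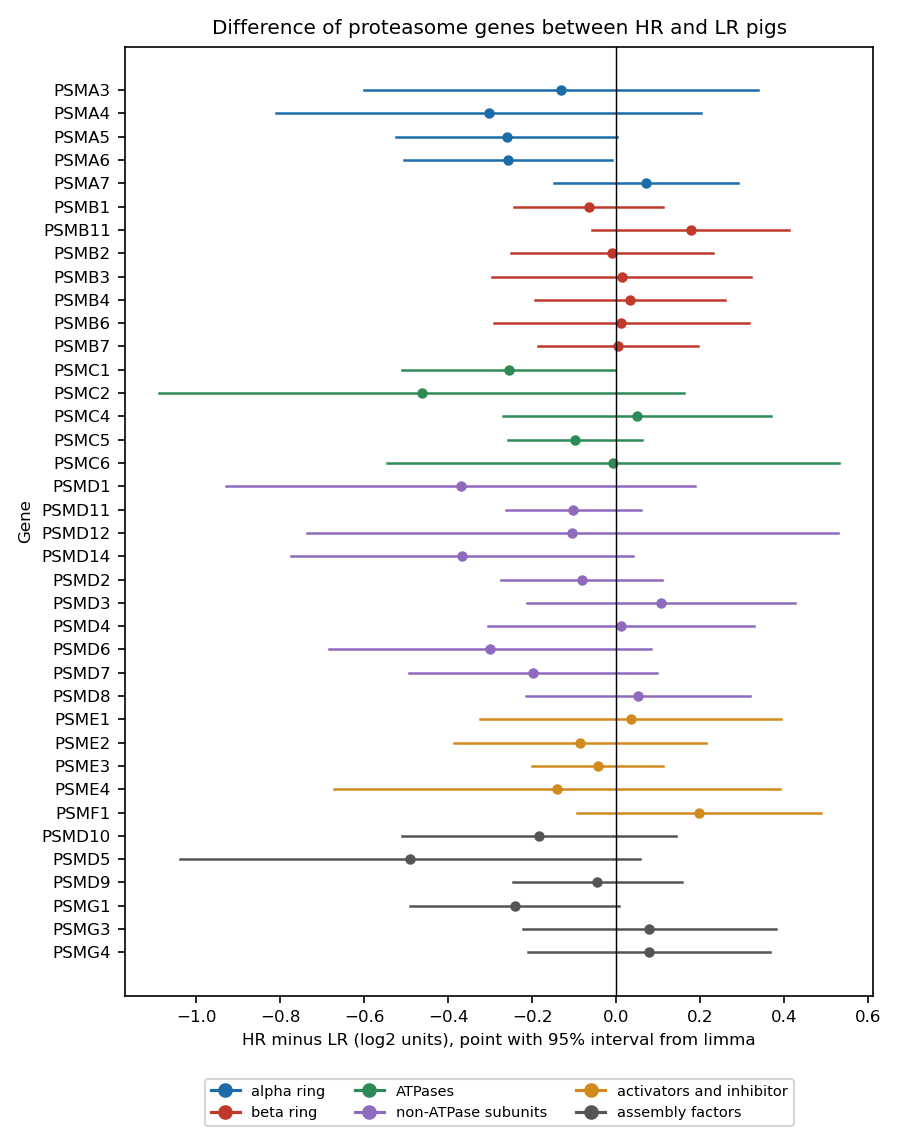
Difference HR minus LR in log2 units (x axis) of the 38 proteasome genes that passed the filter (y axis), coloured by role, with points for the limma estimate and lines for the 95% interval over 10 LR and 10 HR arrays. The intervals of PSMA6 and PSMC1 lie just below 0, those of the other genes include 0, and the beta ring lies between -0.07 and 0.18.

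The alpha ring had the lowest median difference of the 6 roles in the fit without a covariate. Of its 5 kept genes, 4 had a lower mean in HR, with a median difference of -0.26. The ranking of the roles depended on the fit. With the background as a covariate the medians were -0.13 for the ATPases, -0.11 for the alpha ring, -0.11 for the non-ATPase subunits and -0.10 for the beta ring. They were -0.07 for the assembly factors and -0.05 for the activators and inhibitor. PSMA6, an alpha subunit encoded on chromosome 7 (64578247 to 64603351, Sscrofa11.1, as all positions here), ranged from 9.07 over a median of 9.27 to 9.45 in LR and from 8.41 over 9.06 to 9.46 in HR. The HR range enclosed the LR range, and 8 of 10 HR arrays lay below the LR mean, with HR 5, HR 4, HR 3 and HR 10 lowest. The difference was -0.26 ± 0.12 (SE, unadjusted p = 0.0414, adjusted p = 0.861, limma). Its probe set can bind several transcripts. Without the 7 arrays whose background lay over 1 SD from its mean (LR 3, LR 8, HR 4, HR 5, HR 8, HR 9 and HR 10), the difference of PSMA6 was -0.08.

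PSMA5 (chromosome 4, 110695429 to 110717308) had values from 7.46 over 7.82 to 8.18 in LR and from 7.13 over 7.58 to 7.98 in HR. The upper part of the HR range overlapped the LR range, and HR 4, HR 5, HR 10 and HR 3 were the lowest arrays. The difference was -0.26 ± 0.13 (unadjusted p = 0.0514, adjusted p = 0.861, limma). When the 3 probe sets of PSMA5 were averaged, including 2 with mean log2 values of 2.74 and 2.42, the difference was 0.01. PSMA4, with a difference of -0.30 ± 0.24, and PSMA3, with -0.13 ± 0.23, had wide intervals that included 0. PSMA7, the probe set of highest signal among the members (11.3), ranged from 10.92 over 11.23 to 11.53 in LR and from 10.86 over 11.33 to 11.77 in HR, a difference of 0.07 ± 0.11. The signals of different probe sets also depend on their probes and do not rank the genes by abundance. PSMA2 (chromosome 18, 51909399 to 51919859) missed the filter at a mean of 5.13 and had the second widest spread of all members, an SD of 0.73 over 20 arrays, with values from 4.49 over 5.20 to 6.38 in LR and from 3.63 over 5.12 to 5.98 in HR. PSMA8, the alpha subunit of the testis form of the core, also missed it, at 2.55, with values between 2.21 and 2.82 over both groups.

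The beta ring, which holds the cutting sites, had a median difference of 0.01 over 7 kept genes, with 5 higher and 2 lower in HR. With the background as a covariate, 6 of the 7 had a lower estimate in HR. PSMB6, the subunit with caspase-like activity (chromosome 12, 52096009 to 52098164), ranged from 9.22 over 9.60 to 10.02 in LR and from 8.74 over 9.69 to 10.13 in HR. The groups lay on top of each other, with a difference of 0.01 ± 0.15 (95% interval from -0.29 to 0.31). It was the only member between METTL16 and ATP1B2 on chromosome 12, at 0.828 megabases from ATP1B2. PSMB7, the subunit with trypsin-like activity (chromosome 1, 265172257 to 265235389), ranged from 8.99 over 9.21 to 9.32 in LR and from 8.65 over 9.25 to 9.39 in HR, a difference of 0.00 ± 0.09 (95% interval from -0.19 to 0.19). For both genes HR 9 was the lowest array.

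PSMB5, the subunit with chymotrypsin-like activity, was not measured above the filter. Its 2 probe sets had mean log2 values of 3.26 and 3.24, both below the filter, and the brighter one carries the name of a mouse microRNA probe. Over the arrays it ranged from 2.54 over 3.29 to 4.09 in LR and from 2.53 over 3.40 to 3.88 in HR. PSMB11, the beta subunit of the thymus form (chromosome 7, 76005609 to 76006728), lay just above the filter at 5.34, with values from 4.75 over 5.32 to 5.54 in LR and from 4.92 over 5.51 to 5.74 in HR. The ranges overlapped widely, and the difference was 0.18 ± 0.11 (unadjusted p = 0.133, adjusted p = 0.861, limma), the most positive of the beta ring. PSMB1, with a signal of 10.96, differed by -0.07 ± 0.09, and its values ran from 10.88 over 10.97 to 11.15 in LR and from 10.45 over 11.02 to 11.14 in HR. Of the remaining beta subunits, PSMB2 differed by -0.01 ± 0.12, PSMB3 by 0.01 ± 0.15 and PSMB4 by 0.03 ± 0.11. The excluded PSMB8 and PSMB9, interferon-induced beta subunits encoded in the major histocompatibility complex, differed by -0.23 ± 0.30 and 0.12 ± 0.23.

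Among the ATPases, which unfold the substrate, 4 of 5 had a lower mean in HR, with a median difference of -0.10. PSMC1 (chromosome 7, 112027904 to 112041360) ranged from 8.61 over 8.95 to 9.10 in LR and from 8.03 over 8.70 to 9.09 in HR. HR 5, HR 4, HR 3, HR 10 and HR 9 lay below every LR array, the last of them just below. The difference was -0.26 ± 0.12 (unadjusted p = 0.0473, adjusted p = 0.861, limma), with 7 of 10 HR arrays below the LR mean. It was -0.08 without the 7 arrays named above and -0.20 with the background as a covariate. PSMC2 (chromosome 9, 103362684 to 103376048) varied most of all members, with an SD of 0.75 over 20 arrays. It ranged from 7.39 over 8.51 to 8.99 in LR and from 6.43 over 8.38 to 8.97 in HR, and its difference of -0.46 ± 0.30 had an interval from -1.09 to 0.16. PSMC5, in contrast, had one of the 3 narrowest spreads, an SD of 0.14, with values from 9.64 over 9.85 to 10.02 in LR and from 9.37 over 9.79 to 9.90 in HR and a difference of -0.10 ± 0.08. PSMC4 differed by 0.05 ± 0.15 and PSMC6 by -0.01 ± 0.26.

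Of the 10 non-ATPase subunits of the cap, 7 were lower and 3 higher in HR, with a median difference of -0.10. PSMD14, the deubiquitinase of the cap (chromosome 15, 68107379 to 68208884), ranged from 5.97 over 6.85 to 7.10 in LR and from 5.31 over 6.36 to 6.92 in HR. HR 5 and HR 4 lay below every LR array, and the other HR arrays lay within the LR range. The difference was -0.37 ± 0.20 (unadjusted p = 0.0752, adjusted p = 0.861, limma). PSMD6, a structural subunit of the lid of the cap (chromosome 13, 45506334 to 45529481), ranged from 7.12 over 7.62 to 7.86 in LR and from 6.23 over 7.55 to 7.85 in HR, and differed by -0.30 ± 0.19 (unadjusted p = 0.118). Here the medians were close and the low HR mean came with 4 arrays, HR 5, HR 4, HR 10 and HR 3. PSMD12, another lid subunit, ranged from 6.83 over 7.29 to 8.72 in LR and from 6.16 over 7.16 to 8.81 in HR, with an SD of 0.72 and a difference of -0.10 ± 0.30. PSMD11, also of the lid, had an SD of only 0.14, with values from 9.87 over 9.99 to 10.11 in LR and from 9.63 over 9.94 to 10.08 in HR and a difference of -0.10 ± 0.08. The ubiquitin receptor PSMD4 differed by 0.01 ± 0.15 and the scaffold subunits PSMD1 and PSMD2 by -0.37 ± 0.27 and -0.08 ± 0.09. PSMD3, PSMD7 and PSMD8 lay between -0.20 and 0.11.

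Among the activators, PSME1 and PSME2 encode the subunits of an interferon-induced cap and lie next to each other on chromosome 7 (75161830 to 75164531 and 75154570 to 75157871). PSME1 ranged from 7.72 over 8.45 to 8.83 in LR and from 7.56 over 8.54 to 9.07 in HR, a difference of 0.03 ± 0.17. PSME2 ranged from 6.24 over 7.08 to 7.32 in LR and from 6.32 over 6.93 to 7.39 in HR, a difference of -0.09 ± 0.14. The groups overlapped nearly in full for both. PSME3, the subunit of a nuclear cap, had the narrowest spread of all 43 members, an SD of 0.12, with values from 9.86 over 10.06 to 10.23 in LR and from 9.75 over 10.04 to 10.21 in HR. PSME4, which encodes a single-chain cap, differed by -0.14 ± 0.26, and PSMF1 by 0.20 ± 0.14.

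The assembly factors had a median difference of -0.11 over 6 kept genes, 4 of them lower in HR. PSMD5, which escorts ATPase subunits of the cap (chromosome 1, 260847403 to 260868767), had the most negative difference of all members, -0.49 ± 0.26 (unadjusted p = 0.0764, adjusted p = 0.861, limma). Its values ranged from 7.37 over 8.11 to 8.44 in LR and from 6.21 over 7.87 to 8.34 in HR. HR 5, HR 4, HR 3 and HR 10 lay below every LR array and the other 6 HR arrays within the LR range. The estimate of PSMD5 was -0.27 with the background as a covariate and -0.09 without the 7 arrays of extreme background. PSMG1, which helps to form the alpha ring (chromosome 13, 202762509 to 202775601), ranged from 8.61 over 8.81 to 9.01 in LR and from 7.91 over 8.68 to 9.03 in HR. Its lowest arrays were HR 3, HR 4, HR 1 and HR 2, and the difference was -0.24 ± 0.12 (unadjusted p = 0.0561, adjusted p = 0.861, limma). The 3 kept probe sets of PSMG1 disagreed, with differences from -0.24 to 0.07 and pairwise r from -0.15 to 0.54 over 20 arrays. PSMG2, the partner of PSMG1, missed the filter at 4.58, with values from 4.30 over 4.57 to 5.39 in LR and from 4.23 over 4.58 to 4.74 in HR. PSMD9, PSMD10, PSMG3 and PSMG4 lay between -0.18 and 0.08. The prefix-sharing PSMC3IP missed it at 4.87, with values from 4.39 over 4.65 to 5.0 in LR and from 4.37 over 5.01 to 5.46 in HR. In a fit of all 47722 probe sets without the filter it differed by 0.31 ± 0.12, with 9 of 10 HR arrays above the LR mean (unadjusted p = 0.0161, adjusted p = 0.916, limma), and the other 4 members below the filter had unadjusted p-values from 0.306 to 0.949.

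**Figure D2:**
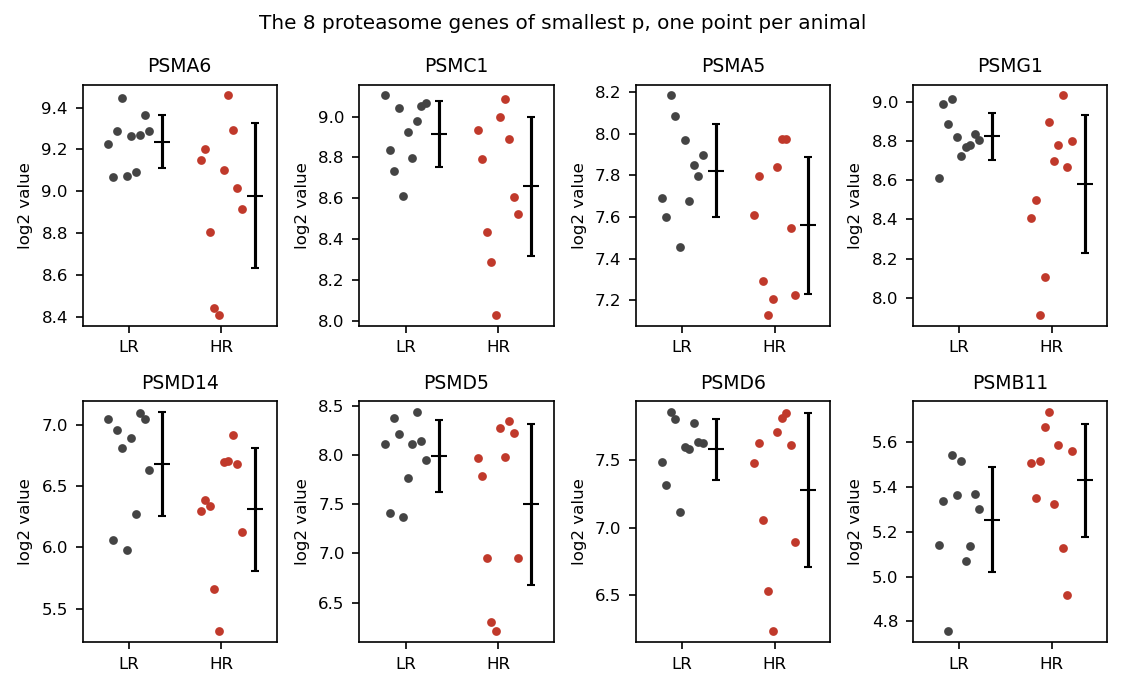
Log2 values (y axes, each on its own scale) of the 8 proteasome genes of smallest p in 10 LR and 10 HR pigs, 1 point per animal, with the mean and SD of each group to the right of its points. For PSMA6, PSMC1, PSMD5 and PSMD6 a few HR arrays lie far below the others, and the groups overlap in all 8 genes.

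The spread within the groups differed in one direction. The SD over the HR arrays was larger than the SD over the LR arrays for 38 of 38 members, against 80.4% of all kept probe sets, and the median ratio of the SDs was 1.65 for the members and 1.34 for all. PSMD5 had an SD of 0.82 in HR and 0.37 in LR, PSMG1 0.35 and 0.12, and PSMA6 0.35 and 0.13, while PSMB11 had 0.25 and 0.23. No test was made of this difference, which was seen in the data and not planned. For 34 of 38 members the lowest of all 20 values lay on HR 4 (7 members), HR 5 (9 members) or HR 9 (18 members). The highest value lay on HR 4 or HR 5 for 13 of 38 members and on HR 9 for 3. These counts were not made over all kept probe sets, so whether they are particular to the family was not tested. Without the 7 arrays of extreme background, the HR spread was the larger one for 25 of 38 members (65.8%) and for 64.0% of all kept probe sets. Of these 7 arrays 5 are HR, among them HR 4, HR 5 and HR 9, so a narrower HR spread without them follows in part from their removal. After the background had been regressed out, the HR spread was the larger one for 31 of 38. No share of all kept probe sets was computed for this step, so it does not show a trait of the members.

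Opposite courses across the arrays ran through the proteasome genes, as they did through the kept named genes in general. The Pearson r of a member with the background over 20 arrays was below -0.5 for 15 and above 0.5 for 18 of the 38 members, and lay between for PSMG1, PSMD11, PSME3, PSMC5 and PSMD9. Over all kept named genes, 33.8% lay below -0.5 and 49.9% above 0.5, so courses in both directions were not particular to the family. All values come from the same arrays and the same normalisation, so these correlations are given as a description. The lowest were those of PSMD1 (r = -0.95, Spearman rho = -0.94), PSME4 (r = -0.94, rho = -0.94) and PSMA3 (r = -0.92, rho = -0.93). The highest were those of PSMG3 (r = 0.94, rho = 0.92), PSMD3 (r = 0.92, rho = 0.92) and PSMC4 (r = 0.91, rho = 0.85). Without the 2 arrays of most extreme background, the r of these 6 genes lay between -0.93 and -0.90 or between 0.89 and 0.91.

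The courses followed the roles only in part. All 7 kept beta ring genes had a positive r, from 0.57 to 0.91, whereas 4 of 5 alpha ring genes (PSMA3, PSMA4, PSMA5 and PSMA6) were below -0.5 and PSMA7 was at 0.68. The cap was split: PSMC1, PSMC2 and PSMC6 lay below -0.5 and PSMC4 above 0.5, and among the non-ATPase subunits 5 lay below and 4 above. The activators were split as well, with PSME4 below and PSME1, PSME2 and PSMF1 above. The mean of the alpha ring genes was lowest on HR 4 (8.42) and highest on LR 3 (9.56), while that of the beta ring genes was lowest on HR 9 (8.43) and highest on HR 5 (9.34).

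**Figure D3:**
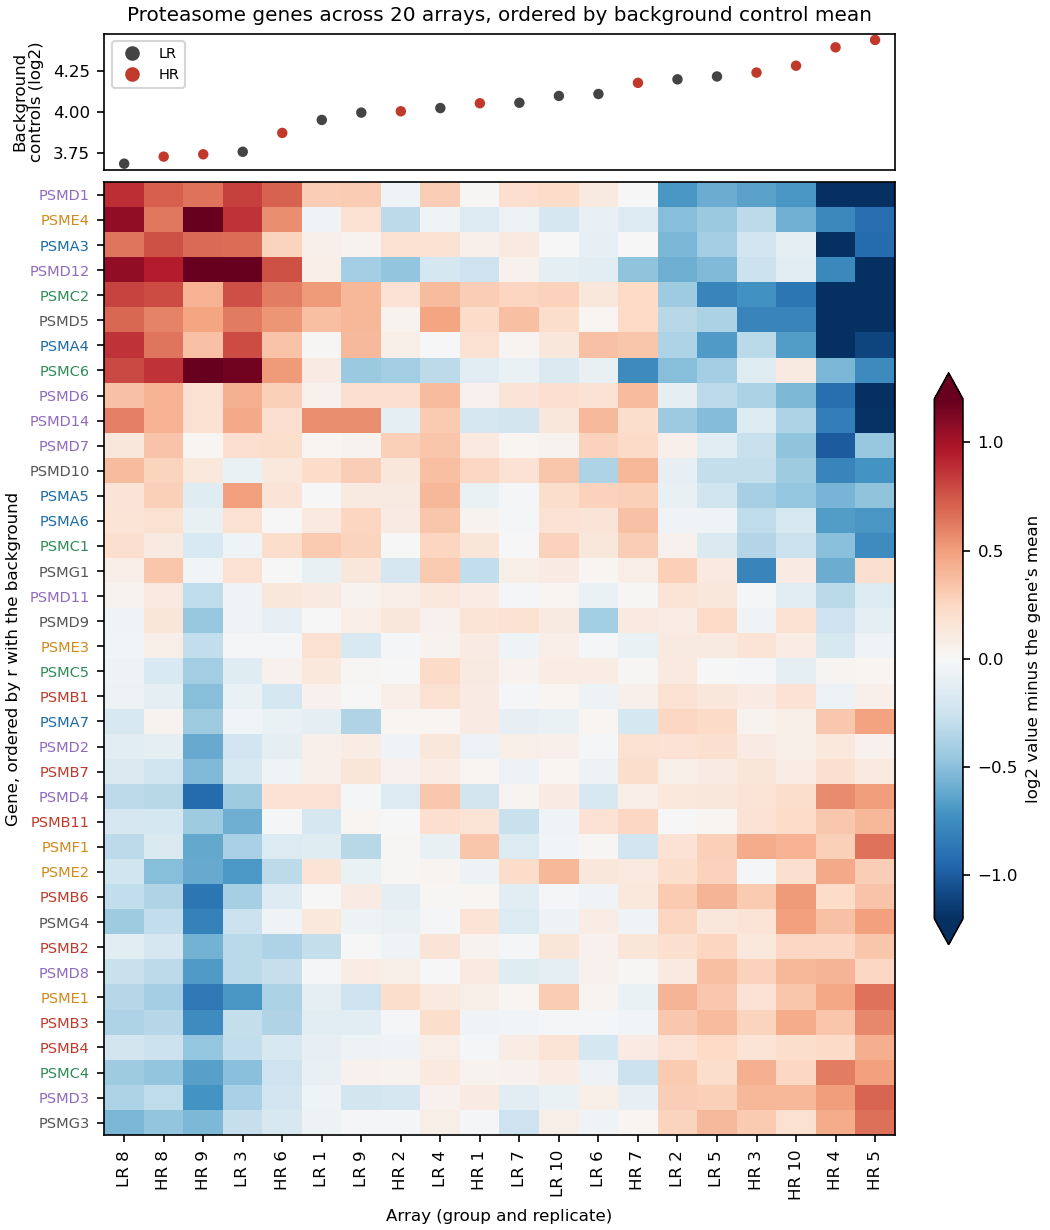
Log2 value of the 38 kept proteasome genes minus the mean of each gene (colour, clipped at 1.2 to each side) on the 20 arrays, which are ordered by background (upper plot, log2). The upper genes are high on the arrays of low background (LR 8, HR 8, HR 9, LR 3) and low on HR 4 and HR 5, the lower genes the reverse, and the beta ring genes (red names) all stand below PSMC5.

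Some cell type markers also moved with the background. The mean of the neuron markers (9 of 10 measured) ran from 9.10 to 10.2 in LR and from 8.68 to 9.76 in HR, with an r of -0.87 with the background. The mean of the astrocyte markers (6 of 6 measured) ran from 10.07 to 11.06 in LR and from 9.90 to 11.03 in HR, with an r of -0.97. The lists were not uniform: GAP43 (r = 0.71) and RBFOX3 (0.33) among the 9 neuron markers and ALDH1L1 (0.80) and GFAP (0.61) among the 6 astrocyte markers had a positive r. The r of the other lists was 0.73 for the hypothalamus, 0.65 for endothelium, 0.35 for oligodendrocytes and 0.34 for choroid plexus. It was 0.33 for ependyma and tanycytes, 0.33 for striatum and pallium, -0.06 for the thalamus and -0.16 for microglia. For the pituitary list, of which 2 of 6 markers passed the filter, it was 0.73. None of the measured neuron and astrocyte markers fell below the filter. Members of the beta ring had an r between -0.83 and -0.38 with the neuron markers and between -0.93 and -0.61 with the astrocyte markers, and those of the alpha ring between -0.62 and 0.90 and between -0.74 and 0.92, with PSMA7 at the low end of both. The part of cell content or of background in these courses was not tested.

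The difference of a member between HR and LR also ran with its relation to the background (r = 0.82, Spearman rho = 0.83 across the 38 genes, which share all arrays and are not independent). Part of this relation is built in. The mean background was 0.08 higher in HR, so a gene that follows the background gains a difference of the same sign. The relation was not computed over all kept probe sets and does not single out the family. With the background as a covariate, 31 of 38 members had a lower estimate in HR, with a median of -0.10, and 57.1% of all kept probe sets did, with a median of -0.02. In that fit 4 of the 38 members, all lower in HR, reached an unadjusted p under 0.05 (PSMA6, PSMD2, PSMD5 and PSME2), where 5.55% of all kept probe sets were lower at that p, and 0 of all kept probe sets an adjusted p under 0.05. PSME2 had an estimate of -0.20 ± 0.08 there (unadjusted p = 0.0147, adjusted p = 0.627, limma), and the estimates of 11 members turned from higher to lower in HR, among them PSMB6 (-0.10), PSMB7 (-0.05) and PSME1 (-0.11). Those of 4 members turned the other way, PSMC6 to 0.20, PSMD12 to 0.15, PSME4 to 0.08 and PSMA3 to 0.06.

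**Figure D4:**
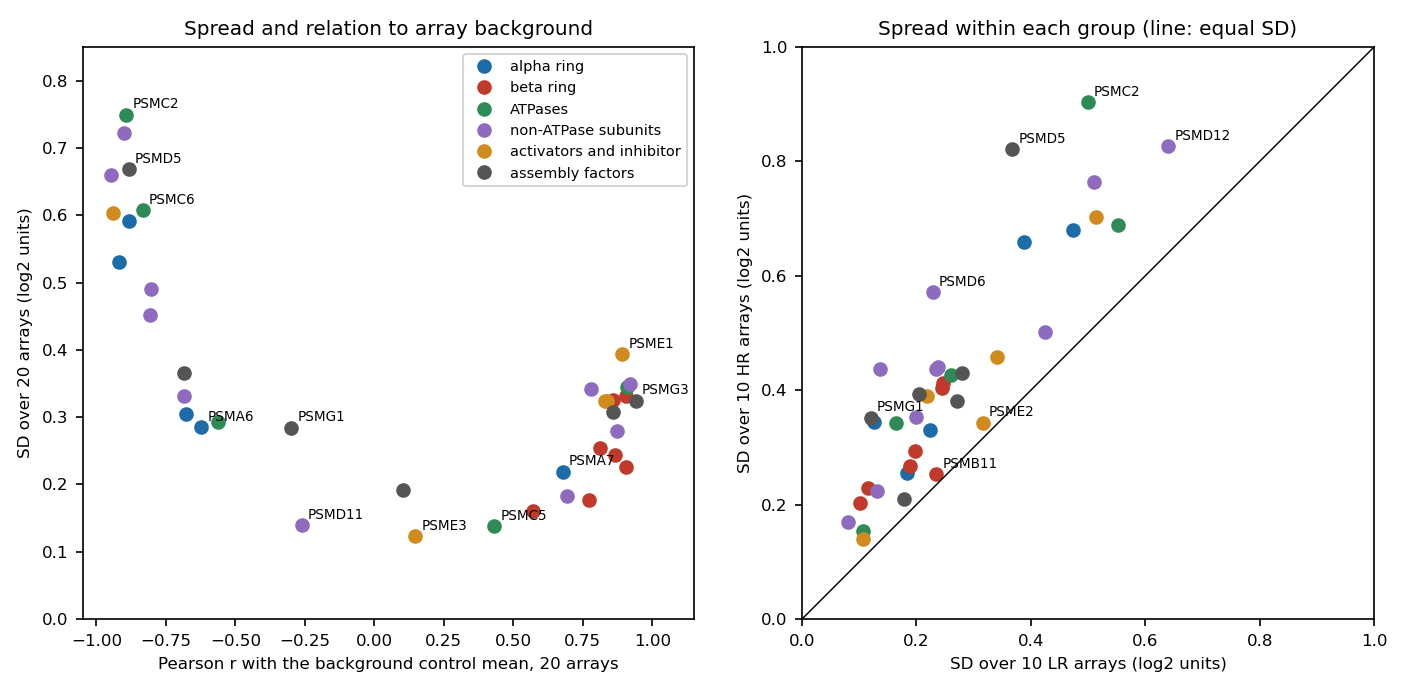
Left, SD of each kept proteasome gene over 20 arrays (log2 units) against its Pearson r with the background. Right, SD over the 10 HR against the SD over the 10 LR arrays, with a line of equal SD. The genes of widest spread, such as PSMC2 and PSMD5, have a strongly negative r, and all 38 points of the right plot lie above the line.

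Members correlated with each other in both directions, as did the kept named genes in general. Over the 703 pairs of the 38 genes the median r was 0.15, with a range from -0.96 to 0.98, and 38.3% of pairs were above 0.5 and 30.7% below -0.5. Among all kept named genes these shares were 32.4% and 29.5%, with a median of 0.08. For 53 cytosolic ribosomal protein genes the median was 0.24 and for 50 genes of the respiratory chain and ATP synthase 0.57. After removal of the background the median of the proteasome pairs was 0.25, and 4.84% of pairs remained below -0.5. The closest pair was PSMD5 with PSMC2 (r = 0.98), followed by PSMC6 with PSMD12 (0.97), and the most opposed was PSME1 with PSME4 (-0.96). Within LR alone the median was 0.17 and within HR 0.19. PSME1 had a second kept probe set, which correlated with the first at 0.42. Of 10 members with more than 1 kept probe set, 7 had one direction of the difference in all of them, the exceptions being PSMB2, PSMC4 and PSMG1.

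**Figure D5:**
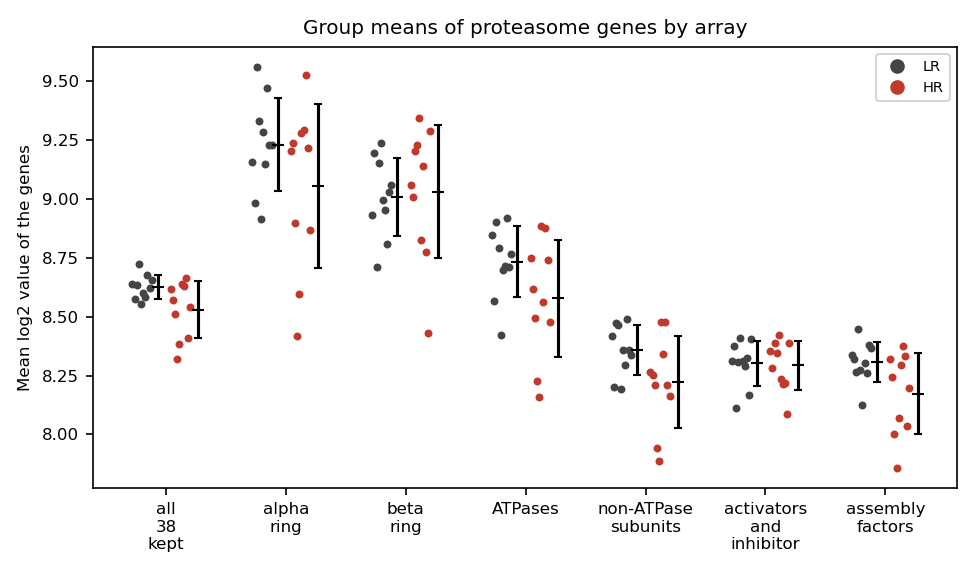
Mean log2 value of the kept proteasome genes per array (y axis), for all 38 and by role (x axis), 1 point per animal, with the group mean and SD beside the points. Levels are comparable within a role only. HR 4, HR 5 and HR 9 form the low end of all 38 (8.32, 8.38 and 8.41), and the HR arrays spread more widely than the LR arrays in every role.

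The mean of the 38 kept members was 8.63 ± 0.05 in LR (SD, n = 10, from 8.55 over 8.63 to 8.73) and 8.53 ± 0.12 in HR (from 8.32 over 8.56 to 8.67). The difference was -0.10 ± 0.04 (SE), for which no test is given, and the HR range reached from below the LR range into its upper part. HR 4, HR 5, HR 9, HR 3 and HR 10 were below every LR array. The mean of the neuron markers differed by -0.21 between HR and LR and had an r of 0.67 with the member mean, that of the astrocyte markers differed by -0.08 with an r of 0.54, and their part in the difference was not tested. HR 9 had 26 of the 38 members below their means, with a median deviation of -0.42, and was also the lowest array in the mean of the respiratory and of the ribosomal genes. LR 3 had 24 members below their means, with a median deviation of -0.07. No such count was made over all kept probe sets. The member mean had an r of -0.54 and a rho of -0.66 with the background, and an r of -0.39 without the 2 arrays of most extreme background. The genes outside the family whose level most resembled this mean over 20 arrays were PFN2 (r = 0.94), GARS (0.93), OAT (0.93), MAGEE2 (0.92), PRDX3 (0.92), ARF4 (0.91), FAM149A (0.91) and ATP5A1 (0.91).

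No gene that works with the proteasome passed the adjusted threshold. Of 29 listed ubiquitin and proteasome partner genes, 20 were measured and all 20 passed the filter. Of these, 14 had a lower and 6 a higher mean in HR, with a median difference of -0.08, while 48.6% of all kept probe sets were lower. At an unadjusted p under 0.05, 1 of the 20 (VCP) was lower in HR, where 3.36% of all kept probe sets were. With so few genes this count is near that share. VCP, the ATPase that extracts ubiquitinated proteins from complexes and membranes (chromosome 1, 235854532 to 235869712), ranged from 9.98 over 10.24 to 10.34 in LR and from 9.66 over 10.05 to 10.27 in HR. Its difference was -0.20 ± 0.09 (unadjusted p = 0.0328, adjusted p = 0.861, limma). It was -0.07 without the 7 arrays of extreme background and -0.18 with the background as a covariate. ZFAND5, which activates the proteasome, differed by -0.28 ± 0.17, UBQLN2, a shuttle for ubiquitinated proteins, by -0.17 ± 0.10, and USP14, a deubiquitinase bound to the cap, by -0.36 ± 0.25. NFE2L1, the transcription factor that induces proteasome genes when the proteasome is inhibited, differed by 0.02 ± 0.12.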

How the data were processed

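Expression was measured on 1 array per animal in 10 LR and 10 HR hypothalami. The authors processed the scans with GCOS 1.1.1 and deposited log2 values normalised with RMA (robust multichip average), a procedure that subtracts background, gives all arrays like distributions and combines probes into probe sets. A shift of most transcripts therefore cannot be seen, and unspecific signal compresses the differences of dim probe sets. The study also describes a detection filter, but the table used here holds all 47845 probe sets.

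After removal of 123 control probe sets, the 50% of highest mean were kept (23861). Genes were named from the platform annotation and placed by RefSeq on Sscrofa11.1, in which all 43 members were found. HR minus LR was fitted by lmFit and eBayes of limma (version 3.58.1, R 4.3.3) over all kept probe sets, with Benjamini-Hochberg adjustment. The script was tested on simulated data. The number of arrays limits the precision. Each array stands for 1 animal.

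Members, lists and rules were chosen with earlier results of these data known. Named with full values were the 8 members of smallest p, the catalytic subunits, PSME1 and PSME2, the 3 members each of widest spread, narrowest spread, highest and lowest signal, 4 partners of smallest p and the 8 genes most correlated with the member mean. Alternatives covered the filter, repeated quantile normalisation, centring, array weights, the exact rank-sum test, background and first component covariates, the choice of probe set, and leaving out arrays. The comparison of spreads, and leaving out HR 4, HR 5 and HR 9 together, were chosen after seeing the data.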

Additional observations from a re-analysis of the deposited data

Results flagged for a closer look

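Sets of 10 values from 1 group were searched for an array far from the others, and 1 of 72 sets held one, where chance gives about 1 in 20. PSMG2, an assembly factor below the filter on low signal, had a log2 value of 5.39 on LR 2, and the next highest LR array had 4.70.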

How the results depend on the processing

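Under every alternative, 0 of the tested probe sets passed the adjusted threshold, and the smallest adjusted p of a named gene was 0.486. The 2 members at an unadjusted p under 0.05 became 0 with repeated quantile normalisation, with centred arrays, with the rank-sum test and with HR 4, HR 5 and HR 9 left out together, 1 with averaged probe sets or with probe sets of single transcripts (30 members), 4 with the background covariate and 5 with the first component as covariate. Leaving out 1 array gave 0 to 6 (6 without HR 8, 0 without each of HR 3, HR 4, LR 4, LR 6, LR 8, LR 9 and LR 10). The 1091 kept probe sets at that p became 2180 with no filter, 600 in the brightest 25%, 1997 with array weights, 1882 and 2251 with the background and first component covariates, 522 without the 7 arrays whose background lay over 1 SD from its mean, 324 without HR 4, HR 5 and HR 9, and 517 to 2411 when 1 array was left out. The median difference of the members kept its sign under all alternatives, with -0.09 to -0.02 when 1 array was left out (-0.02 without HR 9) and -0.01 without HR 4, HR 5 and HR 9, and 22 to 29 members were lower in HR when 1 array was left out. The wider spread in HR held for 33 to 38 of 38 members when 1 array was left out, 25 without the 7 arrays of extreme background and 21 without HR 4, HR 5 and HR 9. These 3 arrays were chosen for their low values and within HR alone, so a narrower HR spread without them, and a smaller difference of genes low on them, follow from the choice. The 7 arrays of extreme background include these 3, so the same limit holds in part for the values without those 7.

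Of 23 named genes refitted, 12 kept their direction throughout. The first component held 64.7% of the variance and had an r of 0.98 with the background. The fits with either covariate, here and above, are therefore nearly the same fit and not separate alternatives. PSMB6 turned to -0.101 with the background covariate, -0.0992 with the first component and -0.0369 without the 7 arrays, and ran from -0.0452 to 0.109 when 1 array was left out. PSMB7 turned to -0.0513 and -0.0506 with these covariates and ran from -0.0200 to 0.0623. PSME1 turned to -0.106 and -0.105 with the covariates and -0.109 without the 7 arrays, and ran from -0.0411 to 0.131. PSMD12 turned to 0.153 and 0.149 with the covariates and 0.0920 without the 7 arrays, and ran from -0.265 to 0.0348. Without those 7 arrays PSMA7 turned to -0.0099, PSMC2 to 0.0264, PSMD6 to 0.0167 and UBQLN2 to 0.0176. With array weights PSMB1 turned to 0.0095 and PSME3 to 0.0053, PSME3 was 0.0226 without HR 4, HR 5 and HR 9, and PSMA5 was 0.0072 with averaged probe sets. The cause of these turns was not tested.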
